A study of Homo sapiens with 12 samples.

Results

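The MYC and MAX network was followed as 8 genes, named by symbol: MYC, MAX, MXD1, MXD3, MXD4, MXI1, MNT and MGA. All 8 were found among the 60835 gene symbols of the tables, and all 8 had enough counts to be tested in every comparison. MYC is a transcription factor that drives growth, ribosome production and cell division, and it binds DNA only as a pair with MAX. MAX also pairs with the MXD proteins, MXI1, MNT and MGA, which bring repressors to the same DNA element, the E-box CACGTG, so that MYC and these partners compete for MAX and for sites. MYC lies in the 8q24 region that is often gained in prostate cancer, and its level in prostate cells is tied to growth and to loss of differentiation.

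RNA sequencing of poly(A) RNA was used on LNCaP cells, an androgen-sensitive human prostate cancer line whose name is spelled LACAP in the cell line labels. The 12 libraries form 4 groups of 3 biological replicates: cells given an shRNA against FOXA1, cells given an shRNA against TRIM28, and for each of these a separate control group given a negative control shRNA. FOXA1 is a pioneer factor of luminal prostate cells that opens chromatin for other transcription factors, and TRIM28 is a corepressor brought to DNA by KRAB zinc finger proteins. How many different shRNAs were used per gene, the time after delivery and any selection step were not stated in the labels, the titles of the knockdown libraries call them SH control while the column names use SI, and all libraries carry batch label 1. The comparison asks which genes each factor controls.

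Library totals were 12256092 to 15152890 counts. FOXA1 stood at 28.6% to 29.2% of its control mean in the FOXA1 knockdown, and TRIM28 at 14.0% to 32.0% in the TRIM28 knockdown. FOXA1 itself was at 43.0% to 70.1% of control in the TRIM28 knockdown, and TRIM28 at 86.9% to 89.4% in the FOXA1 knockdown (edgeR adjusted p = 0.0055 and 0.00221), so both knockdowns had less of both. Markers of luminal prostate cells were present in every library, with KLK3 at 30.1 to 133 CPM (counts scaled to a common library size) and KRT18 at 130.2 to 208 CPM, and the 4 leukocyte markers summed to at most 2.02 CPM. The 4 basal epithelial markers summed to 11.4 to 14.5 CPM in the FOXA1 knockdown and at most 4.73 CPM elsewhere, and the 3 endothelial markers to 10.8 to 11.2 CPM in the TRIM28 knockdown and at most 8.23 CPM elsewhere. Single genes carried most of these sums. Over all libraries KRT15 reached 11.0 CPM and KRT14 3.36 CPM, while KRT5 was at most 0.816 CPM and TP63 at most 0.266 CPM. VWF reached 10.7 CPM, while PECAM1 was at most 0.566 CPM and CDH5 at most 0.898 CPM. The part of these marker genes in the results was not tested. Replicate 3 of the TRIM28 knockdown stood apart: its 6 stromal markers summed to 447 CPM, against 29.0 to 42.2 CPM in the other 11 libraries, with COL3A1 at 189 CPM against 2.26 and 6.63 CPM in replicates 1 and 2. Results of the TRIM28 knockdown that were found to turn on this library are given with and without it, and the part of the stromal RNA in them was not tested. In bulk RNA, fewer cells with a transcript and less of it per cell cannot be told apart.

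Levels were compared between genes as FPKM, the deposited values that divide a gene's counts by its transcript length and by the library total. In the controls MYC was the most abundant of the 8, at 71.1 ± 2.91 FPKM (SD, n = 3) in the FOXA1 control and 70.1 ± 3.03 FPKM in the TRIM28 control. MXI1 was next, at 42.9 ± 3.86 and 44.6 ± 5.13 FPKM, and its libraries did not overlap those of MYC. MXD4 followed with 17.7 ± 1.72 and 18.7 ± 0.95 FPKM, then MAX with 14.4 ± 1.83 and 14.2 ± 0.86 FPKM. In the FOXA1 control the ranges of MXD4 and MAX overlapped, so their order there lies within the spread. MNT, MXD3 and MGA formed a group between 5.92 and 7.77 FPKM on average, and neighbours within it overlapped in at least 1 of the control groups. MXD1 was the least abundant, at 1.63 ± 0.21 and 1.75 ± 0.20 FPKM, below every other member in every library. MYC thus made up 42.3% ± 1.68 (SD, n = 3) of the summed FPKM of the 8 genes in the FOXA1 control and 41.3% ± 1.86 in the TRIM28 control.

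**Figure D1:**
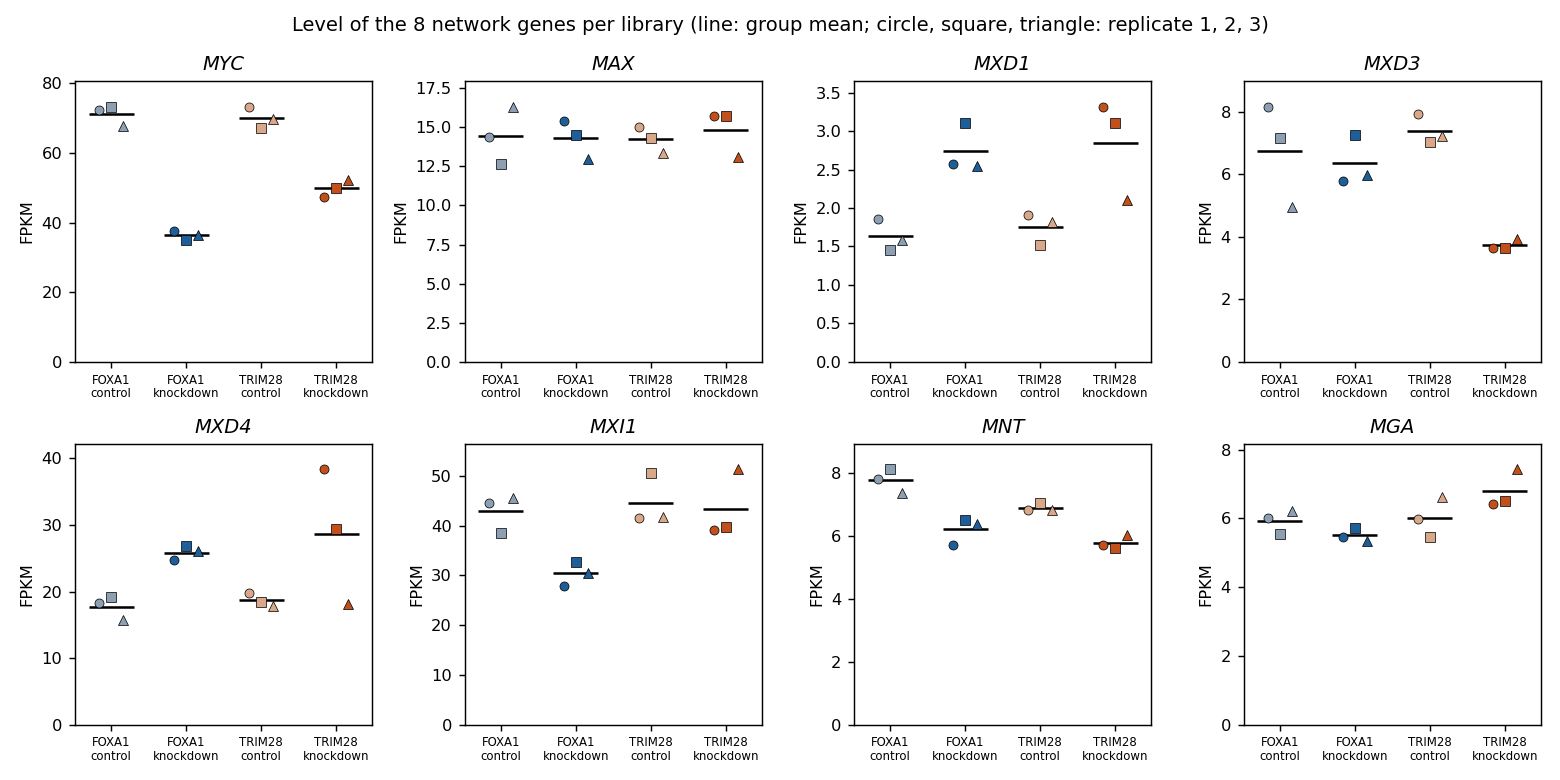
Each panel shows 1 network gene, with the deposited FPKM of the 12 libraries on the y axis and the 4 groups on the x axis; points are libraries, with circle, square and triangle for replicates 1, 2 and 3, and lines are group means. MYC lies between 67.3 and 73.3 FPKM in the 6 control libraries and between 35.1 and 52.3 FPKM in the 6 knockdown libraries, while the MAX groups overlap.

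The 2 control groups differed in none of the 14839 genes tested (edgeR quasi-likelihood test, Benjamini-Hochberg adjusted p under 0.05; DESeq2 also called 0, and 635 genes had an unadjusted p under 0.05). The smallest p among the members was that of MNT. Its mean was 38.5 ± 1.62 CPM (SD, n = 3) in the FOXA1 control and 33.9 ± 1.00 CPM in the TRIM28 control, a log2 difference of -0.19 with an unadjusted p of 0.0269 and an adjusted p of 0.992 in edgeR's test.

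MYC fell in both knockdowns. In the FOXA1 knockdown the controls had 271, 274 and 255 CPM and the knockdown libraries 141, 129.5 and 135 CPM. Every knockdown library was well under every control, and the mean went from 267 ± 9.93 to 135 ± 5.50 CPM, 50.7% of control, a log2 fold change of -0.98 (SE 0.05, edgeR adjusted p = 6.06e-16). The TRIM28 pair had 273, 264 and 268 CPM in the controls and 171, 181 and 193 CPM in the knockdown. The groups again did not overlap, and MYC stood at 67.8% of control, a log2 fold change of -0.56 (SE 0.08, edgeR adjusted p = 0.0012). The fall was smaller in the TRIM28 knockdown: the difference between the 2 effects, tested over all 12 libraries, was 0.41 (SE 0.09, edgeR adjusted p = 0.00775). Among the members, the difference was called upward for 1, MYC, and downward for 1, MXD3, against 4.59% and 5.98% of the 15921 genes tested. It was called for 10.6% in all (1683 genes, and 3583 without replicate 3 of the TRIM28 knockdown). MYC was called under all 17 alternative settings in each knockdown.

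For the whole transcriptome, 52.4% of 14953 genes tested were called in the FOXA1 knockdown (26.1% up, 26.3% down) and 26.7% of 14981 in the TRIM28 knockdown (13.3% up, 13.3% down). Scaling by library totals alone, instead of TMM (trimmed mean of M values), moved the share of TRIM28 calls that were rises from 49.9% to 63.4%. Among the 8 members, 2 rose and 3 fell in the FOXA1 knockdown, and 1 rose and 3 fell in the TRIM28 knockdown. With 5 of 8 and 4 of 8 called where changes were this common, the counts alone set nothing apart about the network. Leaving out replicate 3 of the TRIM28 knockdown raised its calls from 3993 to 6867 genes and from 4 to 6 members. Leaving out any other library of that pair lowered them to between 1877 and 2973 genes and to 2 members, MYC and MXD3.

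MAX, the partner that all the others need, did not pass the test in either knockdown. Its libraries held 40.1 to 52.1 CPM in the FOXA1 control and 40.8 to 48.6 CPM in the knockdown, and 43.3 to 47.6 and 41.2 to 48.2 CPM in the TRIM28 pair. The groups overlapped fully. The log2 fold change was -0.03 (95% interval -0.21 to 0.15, edgeR adjusted p = 0.819) in the FOXA1 knockdown and -0.01 (-0.24 to 0.22, adjusted p = 0.946) in the TRIM28 knockdown, where it turned to 0.06 with library totals alone. A change of more than about these limits in MAX is outside the intervals, and smaller ones were not detectable.

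The MXD proteins and MXI1 are small repressors that bind DNA with MAX and recruit the SIN3 complex, and some of them rise as cells stop dividing and differentiate. They moved in different directions. MXD1, the founding member, had 10.4, 8.16 and 8.96 CPM in the FOXA1 control and 14.4, 17.2 and 14.2 CPM in the knockdown. All knockdown libraries were above all controls, and the log2 fold change was 0.73 (SE 0.13, edgeR adjusted p = 3.15e-05). In the TRIM28 pair MXD1 had 10.7, 8.95 and 10.5 CPM in the controls and 17.9, 16.8 and 11.7 CPM in the knockdown. Replicate 3 was the lowest of the knockdown libraries and only slightly above the controls. The log2 fold change was 0.63 (SE 0.18, adjusted p = 0.0296). Leaving out any 1 of the other 5 libraries ended this call (adjusted p 0.0818 to 0.125), and leaving out replicate 3 kept it, at 0.79 (adjusted p = 4.01e-05).

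MXD4 had 77.4, 81.2 and 67.5 CPM in the FOXA1 control and 105, 112 and 110.0 CPM in the knockdown. The knockdown libraries lay close together above all the controls, with a log2 fold change of 0.53 (SE 0.06, edgeR adjusted p = 4.54e-08). In the TRIM28 knockdown it had 157, 121 and 76.2 CPM, against 83.4, 82.3 and 77.8 CPM in the controls. Replicates 1 and 2 were above all the controls and replicate 3 below them. The log2 fold change was nearly the same size, 0.54, with an SE of 0.23, and did not pass (edgeR adjusted p = 0.118). Without replicate 3 it was 0.77 (adjusted p = 2.6e-07), and DESeq2 called it with all libraries (0.54, adjusted p = 0.0327).

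MXI1, also known as MXD2 and the most abundant of the MAX partners after MYC, moved against MXD4 in the FOXA1 knockdown. It had 156, 134 and 160.1 CPM in the controls and 97.2, 113 and 106 CPM in the knockdown, with no overlap. The log2 fold change was -0.51 (SE 0.07, edgeR adjusted p = 5.42e-07). In the TRIM28 pair it had 145, 185 and 149 CPM in the controls and 131, 134 and 177 CPM in the knockdown. Replicate 3 of the knockdown was again on its own, here on the high side, and the groups overlapped. The log2 fold change was -0.11 (SE 0.14, adjusted p = 0.572), and -0.27 without replicate 3 (adjusted p = 0.00836). The difference between the 2 effects did not pass (0.39, SE 0.17, edgeR adjusted p = 0.172).

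MXD3, the MXD gene expressed in dividing cells, fell in the TRIM28 knockdown. The controls had 18.1, 16.9 and 17.0 CPM and the knockdown libraries 8.05, 8.10 and 8.93 CPM. The replicates of each group were tight and far apart from the other group, replicate 3 included, and the knockdown stood at 48.3% of control (log2 fold change -1.05, SE 0.14, edgeR adjusted p = 0.000892). In the FOXA1 pair MXD3 had 18.7, 16.4 and 11.4 CPM in the controls and 13.2, 16.4 and 13.6 CPM in the knockdown. The groups overlapped, and the fold change of -0.11 did not pass (adjusted p = 0.56). The difference between the 2 effects passed (-0.96, SE 0.22, edgeR adjusted p = 0.0103), as it did under all 17 alternatives. MXD3 shares 22.5% of its exon bases with PRELID1, which lies on the opposite strand, and 18.0% with RAB24, which lies on the same strand. The sources used here do not give the strand setting of the counting. Reads of MXD3 and PRELID1 therefore cannot be told apart where they overlap. Reads of MXD3 and RAB24 cannot be told apart by strand on their shared bases under any setting. PRELID1 went from a mean of 95.02 to 81.43 CPM in the TRIM28 knockdown (log2 fold change -0.30, edgeR adjusted p = 0.0349), and RAB24 from 5.28 to 5.02 CPM (-0.15, adjusted p = 0.724). The part of these reads in the MXD3 change was not tested.

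**Figure D2:**
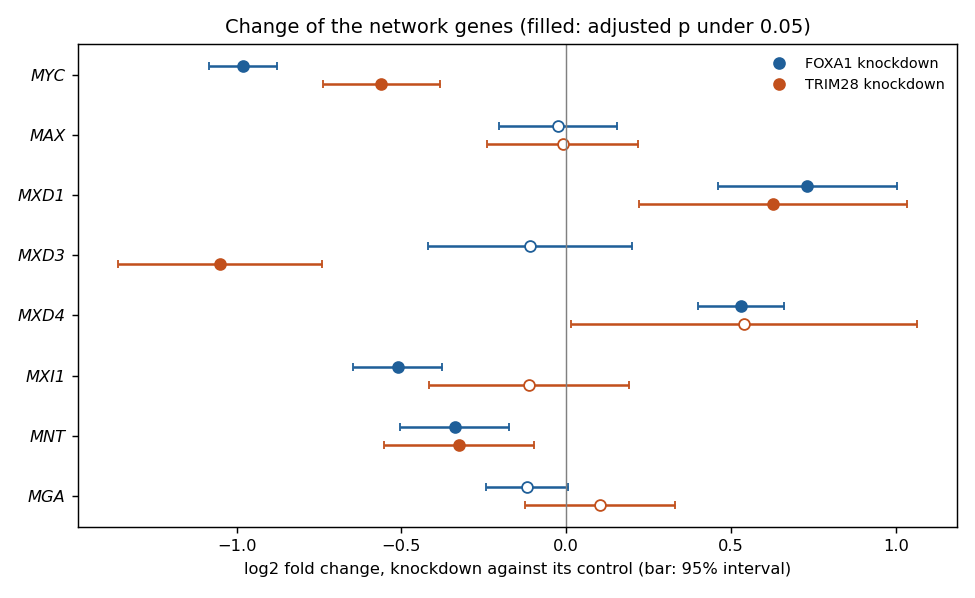
Log2 fold change of each network gene (y axis) against its own control in the FOXA1 knockdown (blue) and the TRIM28 knockdown (orange), with the 95% interval as a bar; filled points have an edgeR adjusted p under 0.05. MYC lies at -0.98 and -0.56, MXD3 at -0.11 and -1.05, and the MXD4 interval in the TRIM28 knockdown is the widest of the MXD4 pair.

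MNT, a larger repressor that is present in most cells and holds MYC in check in resting and dividing cells, was lower in both knockdowns. It had 38.7, 40.2 and 36.7 CPM in the FOXA1 control and 28.2, 31.9 and 31.4 CPM in the knockdown, with a log2 fold change of -0.34 (SE 0.08, edgeR adjusted p = 0.000764). The TRIM28 pair had 33.6, 36.6 and 34.7 CPM in the controls and 27.2, 26.9 and 29.6 CPM in the knockdown, with a log2 fold change of -0.33 (SE 0.10, adjusted p = 0.0392). Neither pair overlapped, and beside these changes stands the log2 difference of -0.19 between the 2 control groups. The TRIM28 call was lost with library totals alone (-0.25, adjusted p = 0.0795), with the replicate number as a block (-0.33, adjusted p = 0.066), without a filter on low counts (-0.32, adjusted p = 0.0847), in all 3 FPKM settings (adjusted p 0.0872 to 0.215) and without any 1 of the libraries other than replicate 3 of the knockdown (adjusted p 0.0843 to 0.139), and without that replicate it was -0.37 (adjusted p = 0.00337). 

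MGA is a very large protein that carries a second DNA-binding domain, the T-box, and builds the repressor complex PRC1.6. It had 81.1 to 91.7 CPM in the FOXA1 control and 77.6 to 82.9 CPM in the knockdown, and 84.0 to 99.6 and 90.3 to 108 CPM in the TRIM28 pair. Both pairs overlapped. The log2 fold changes were -0.12 (SE 0.06, edgeR adjusted p = 0.104) and 0.10 (SE 0.10, adjusted p = 0.496), and the first was called when control replicate 2 was left out (-0.16, adjusted p = 0.0413).

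The balance of the network shifted away from MYC in both knockdowns, as a description of levels with no test. MYC per summed FPKM of its competitors (MXD1, MXD3, MXD4, MXI1, MNT and MGA) was 0.835, 0.916 and 0.832 in the FOXA1 control libraries and 0.522, 0.427 and 0.474 in the knockdown. In the TRIM28 pair the ratio was 0.873, 0.747 and 0.851 in the controls and 0.491, 0.569 and 0.587 in the knockdown. All knockdown libraries were below all controls. The sum of the competitors moved little next to this: it was 82.7 ± 3.58 FPKM (SD, n = 3) in the FOXA1 control and 77.0 ± 4.97 FPKM in the knockdown, and 85.4 ± 4.16 and 91.2 ± 4.78 FPKM in the TRIM28 pair. On average MYC remained the most abundant member in every group, at 28.5% of the summed FPKM in the FOXA1 knockdown and 32.0% in the TRIM28 knockdown.

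Within the competitors, the make-up changed more than the sum. MXD4 per MXI1 (a ratio of FPKM) went from 0.417 ± 0.076 (SD, n = 3) to 0.852 ± 0.033 in the FOXA1 knockdown, where the libraries did not overlap. In the TRIM28 pair it was 0.422 ± 0.055 in the control and 0.980, 0.739 and 0.352 in the 3 knockdown libraries. Replicates 1 and 2 were above all the controls, and replicate 3, the library with the stromal markers, was below them.

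**Figure D3:**
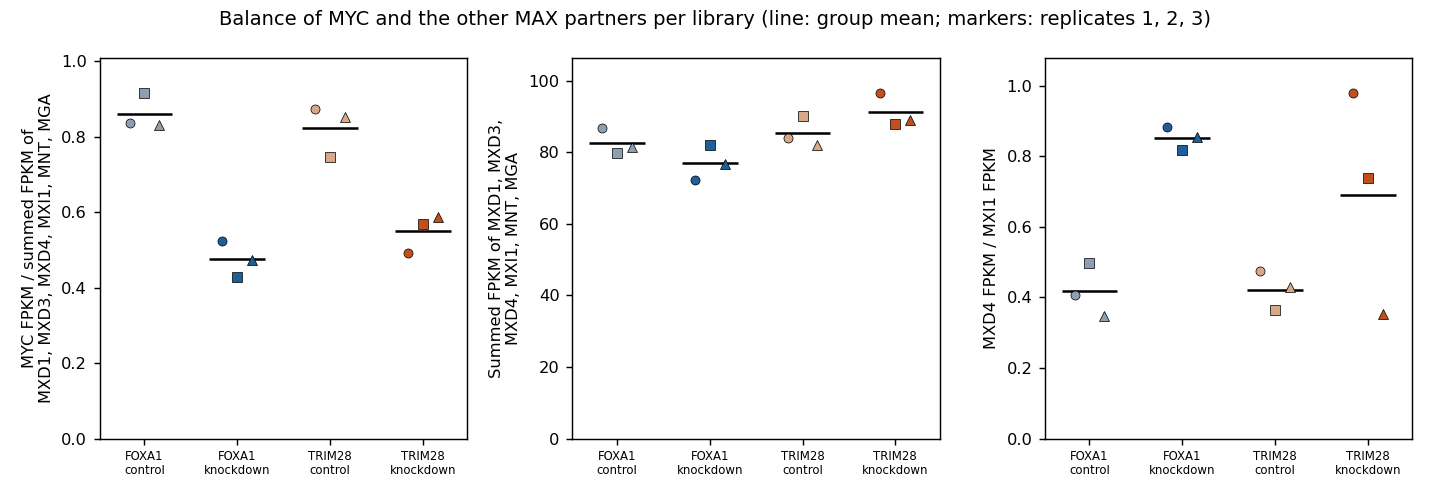
The y axes give, from left to right, MYC FPKM per summed FPKM of the 6 other MAX partners, that sum, and MXD4 FPKM per MXI1 FPKM, for each of the 12 libraries by group; lines are group means and markers are replicates 1, 2 and 3. MYC per partner sum is 0.747 to 0.916 in the controls and 0.427 to 0.587 in the knockdowns, and replicate 3 of the TRIM28 knockdown (triangle) has the lowest MXD4 per MXI1 of its group, at 0.352.

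The promoters of the members were read for the elements that the network and FOXA1 are known to bind. RefSeq windows (GRCh38.p14, 250 bases before and 50 after a start site, 12 windows) were held for 7 members, all but MYC. Each was searched on both strands for the E-box CACGTG, its variant CACGCG and the forkhead element TGTTTAC. The full E-box occurred in 2 of the 12 windows, those of MXD4 and MNT, and in 7.26% of all 35116 windows. CACGCG occurred once each in MXD3, MXI1 and MGA (11.4% of all windows), and TGTTTAC in 2 windows of MXI1 (3.42% of all windows). A match describes letters only and is not evidence of binding. The whole windows of MXD4 (chr4:2262060-2262359, minus strand) and MNT (chr17:2401011-2401310, minus strand) are shown because these are the members with the full E-box, with the E-box in capitals, and its first base lies at -238 and -193 from the start site.
MXD4: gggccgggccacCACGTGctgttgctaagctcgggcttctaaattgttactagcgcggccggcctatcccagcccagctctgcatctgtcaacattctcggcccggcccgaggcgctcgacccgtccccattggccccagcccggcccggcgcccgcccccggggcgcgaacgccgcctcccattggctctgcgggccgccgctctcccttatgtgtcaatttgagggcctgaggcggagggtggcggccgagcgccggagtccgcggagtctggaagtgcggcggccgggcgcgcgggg
MNT: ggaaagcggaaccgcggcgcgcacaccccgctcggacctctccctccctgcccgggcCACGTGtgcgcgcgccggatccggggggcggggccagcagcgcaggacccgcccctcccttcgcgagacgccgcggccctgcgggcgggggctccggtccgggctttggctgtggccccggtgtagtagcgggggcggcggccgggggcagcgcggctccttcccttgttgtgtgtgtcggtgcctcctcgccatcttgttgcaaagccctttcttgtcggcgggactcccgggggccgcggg
For MXI1, which fell in the FOXA1 knockdown, the surroundings of the forkhead matches are shown with the match in capitals. They are at chr10:110210069-110210097 (first base at -151 from its start site) and chr10:110225983-110226011 (first base at -2 from another start site), both on the plus strand, and the second holds the element in reverse.
MXI1 first window: cgccacctcgtTGTTTACcccgtgccggg
MXI1 second window: cgcggggagagGTAAACAaaccacgcgcg
The members with a CACGTG in the window did not move alike: MXD4 had log2 fold changes of 0.53 and 0.54, and MNT of -0.34 and -0.33, in the FOXA1 and TRIM28 knockdowns.

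Many genes that MYC is known to activate fell. Of 66 tested genes of this list, which holds nucleolar, ribosome-building, nucleotide and growth genes, 42 fell and 8 rose in the FOXA1 knockdown, with a median log2 fold change of -0.325 against -0.017 over all genes tested. These were 63.6% and 12.1% of the list, against 26.3% and 26.1% of all genes. The TRIM28 knockdown had 33 that fell and 1 that rose, with a median of -0.313 against 0.002 over all genes, with 44 falling without replicate 3 of the knockdown and 17 without replicate 2 of the control. The 33 and the 1 were 50% and 1.52% of the list, against 13.3% of all genes in each direction. The 28 genes that fell in both were 66.7% of the first set and 84.8% of the second. The overlap of falls over all genes was not counted, so these 2 shares do not set the list apart. Library by library, the median of the list against its control mean was -0.247 to -0.358 in the 6 knockdown libraries and -0.032 to 0.041 in the 6 controls, replicate 3 of the TRIM28 knockdown included (-0.289). The list was drawn up with earlier results on these libraries known, so its direction is not independent evidence.

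NPM1, the nucleolar chaperone of ribosome assembly, fell from 1722 ± 71.2 to 1153 ± 21.7 CPM in the FOXA1 knockdown (log2 fold change -0.58, edgeR adjusted p = 1.84e-12). SORD, a sorbitol dehydrogenase that is also an androgen-regulated prostate gene, fell from 706 ± 22.2 to 364 ± 22.0 CPM (-0.96, adjusted p = 3e-16). Both also fell in the TRIM28 knockdown, with log2 fold changes of -0.59 for NPM1 and -0.61 for SORD (edgeR adjusted p = 0.00163 and 0.00237). The smallest p-values among the falls of the TRIM28 knockdown belonged to TMEM97, a regulator of cholesterol transport (168 ± 3.90 to 99.99 ± 6.76 CPM, log2 fold change -0.75), SLC19A1, the reduced folate carrier (37.6 ± 0.27 to 20.1 ± 2.17 CPM, -0.90), and NOP56, a core protein of box C/D small nucleolar ribonucleoproteins (184 ± 7.52 to 123 ± 6.72 CPM, -0.58). These 3 had edgeR adjusted p-values of 0.000522, 0.000788 and 0.00116. They also fell in the FOXA1 knockdown, with log2 fold changes of -0.36, -0.37 and -0.44 (adjusted p = 4.4e-06, 0.00456 and 1.4e-07).

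Exceptions were also large. TFRC, the transferrin receptor, rose from 494 ± 39.1 to 1128 ± 38.4 CPM in the FOXA1 knockdown (log2 fold change 1.19, edgeR adjusted p = 2.75e-17) and from 477 ± 23.0 to 975 ± 43.9 CPM in the TRIM28 knockdown (1.03, adjusted p = 0.000112). DUSP2, a phosphatase that acts on MAP kinases, rose from 18.9 ± 1.38 to 49.0 ± 1.93 CPM in the FOXA1 knockdown (1.37, adjusted p = 3e-14), and in the TRIM28 knockdown its fold change was 0.29 (adjusted p = 0.472).

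Of the 57 genes of this list with a promoter window, 31 (54.4%) held CACGTG in at least 1 window, against 8.77% of all 27305 genes with one. In the FOXA1 knockdown 17 of 29 tested genes with CACGTG fell and 6 rose, and of 26 without it 18 fell and 2 rose. The TRIM28 knockdown had 14 of 29 that fell and 0 that rose, against 13 and 1 of 26. These shares were not tested against each other. The surroundings of the E-box are shown, in capitals, for DUSP2 (chr2:96145536-96145565, minus strand, first base at -113) and SLC19A1 (chr21:45541797-45541826, minus strand, first base at 33), which both carry it but moved in opposite directions in the FOXA1 knockdown, with log2 fold changes of 1.37 and -0.37 (edgeR adjusted p = 0.00456 for SLC19A1).
DUSP2: cagactgcgcccCACGTGaggggcgggggc
SLC19A1: ttcgcgcccaggCACGTGttgcttcgggac

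Of 16 tested genes that MYC is known to repress, 10 rose and 4 fell in the FOXA1 knockdown (median log2 fold change 0.751, against -0.017 over all genes), and 5 rose and 2 fell in the TRIM28 knockdown (median 0.201), where the 5 that rose had all risen in the FOXA1 knockdown. That count of 5 became 3 without knockdown replicate 2 or any 1 of the control replicates. The overlap of rises over all genes was not counted, so the shared rises do not set this list apart. In the FOXA1 knockdown 62.5% of the list rose and 25% fell, against 26.1% and 26.3% of all genes. In the TRIM28 knockdown 31.2% rose and 12.5% fell, against 13.3% of all genes in each direction. CDKN1A, the cell cycle inhibitor p21, rose from 67.7 ± 4.49 to 223 ± 6.40 CPM in the FOXA1 knockdown (log2 fold change 1.72, edgeR adjusted p = 1.35e-20), and by 2.96 (SE 0.67, adjusted p = 0.0363) in the TRIM28 knockdown. CLU, the chaperone clusterin, rose from 45.4 ± 2.59 to 249 ± 5.19 CPM (2.45, adjusted p = 1.04e-23) and in the TRIM28 knockdown from 43.7 ± 2.40 to 86.7 ± 7.06 CPM (0.99, adjusted p = 0.000265). CDKN2B, the cell cycle inhibitor p15, rose from 0.457 ± 0.141 to 4.47 ± 1.77 CPM in the TRIM28 knockdown (3.26, adjusted p = 0.000847), and by 3.28 in the FOXA1 knockdown (adjusted p = 1.41e-12). CDKN1B, the inhibitor p27, went the other way in the FOXA1 knockdown, from 181 ± 3.34 to 105 ± 3.25 CPM (-0.79, adjusted p = 1.44e-13). It also fell in the TRIM28 knockdown (-0.47, adjusted p = 0.0225).

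**Figure D4:**
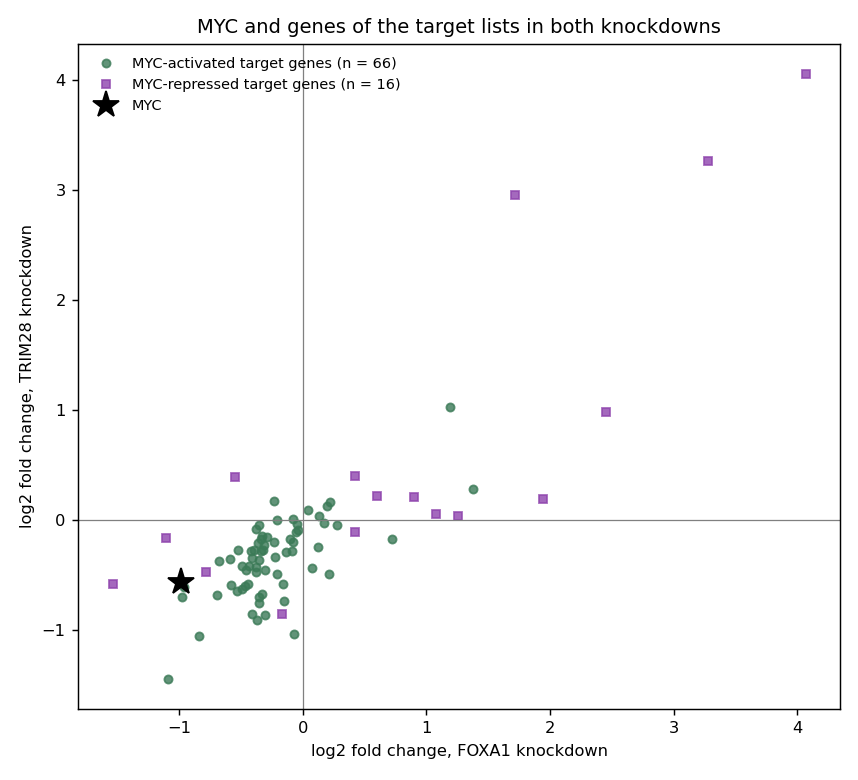
Log2 fold change in the FOXA1 knockdown (x axis) and the TRIM28 knockdown (y axis) of the 66 tested MYC-activated genes (circles), the 16 tested MYC-repressed genes (squares) and MYC itself (star, at -0.98 and -0.56); the median of the activated genes is -0.325 on the x axis and -0.313 on the y axis. TFRC, at 1.19 and 1.03, stands apart from the other activated genes in the upper right.

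The factors that work with the members were taken in the same way. Each list is given beside all genes tested, of which 26.1% rose and 26.3% fell in the FOXA1 knockdown (median log2 fold change -0.017). In the TRIM28 knockdown 13.3% rose and 13.3% fell (median 0.002). Lists near these shares are not set apart by their counts. Of 4 tested genes of the MYC paralogs and the MLX arm, a parallel network in which MLX takes the place of MAX, 1 rose and 1 fell in the FOXA1 knockdown (25% each, median log2 fold change 0.042) and 1 fell in the TRIM28 knockdown (25%, median -0.038). MLX had 65.2 ± 0.92 and 63.6 ± 3.04 CPM in the FOXA1 pair (log2 fold change -0.04, edgeR adjusted p = 0.662), and fell from 72.2 ± 2.54 to 43.4 ± 9.84 CPM in the TRIM28 knockdown (-0.73, adjusted p = 0.00693). The paralog MYCL was low and did not pass, at 12.6 ± 1.597 and 13.7 ± 2.37 CPM in the FOXA1 pair and 12.0 ± 1.49 and 14.8 ± 2.21 CPM in the TRIM28 pair. MLXIP, a partner of MLX that responds to glucose metabolites, rose by 0.18 in the FOXA1 knockdown (adjusted p = 0.00953), a call that was lost without control replicate 3 (0.11, adjusted p = 0.0698). MLXIPL, its liver-enriched relative, fell by 0.44 there (adjusted p = 0.0403), a call that was kept only without knockdown replicate 2 when single libraries were left out (adjusted p up to 0.204).

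Of the 14 tested genes of the SIN3 and histone deacetylase complex, through which the MXD proteins and MNT repress, 7 rose and 3 fell in the FOXA1 knockdown (50% and 21.4%, median log2 fold change 0.236), and 2 rose and 2 fell in the TRIM28 knockdown (14.3% each, near the 13.3% of all genes, median 0.021). Without replicate 3 of the TRIM28 knockdown 3 rose and 4 fell there, and without any 1 of its other libraries 1 or 2 rose and 0 or 1 fell. SIN3B, a scaffold of the complex, rose from 51.3 ± 1.54 to 82.7 ± 5.16 CPM in the FOXA1 knockdown (log2 fold change 0.69, edgeR adjusted p = 4.8e-10), and by 0.39 in the TRIM28 knockdown (adjusted p = 0.0108). ARID4B, another subunit, rose in both, by 0.33 (adjusted p = 1.19e-05) and 0.42 (adjusted p = 0.00527). NCOR1, a corepressor that works with histone deacetylases, rose from 307 ± 15.7 to 407 ± 7.65 CPM in the FOXA1 knockdown (0.41, adjusted p = 2.09e-08). Other genes of this list fell. SAP30 had -0.77 in the TRIM28 knockdown (edgeR adjusted p = 0.0112, not called in 3 of 17 alternatives) and -0.61 in the FOXA1 knockdown. RBBP7 had -0.30 in the TRIM28 knockdown (edgeR adjusted p = 0.0442) and 0.25 in the FOXA1 knockdown.

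Of 13 tested genes of the MGA complex PRC1.6, 3 rose and 3 fell in the FOXA1 knockdown (23.1% each, near the shares of all genes, median log2 fold change -0.048), and 1 fell without knockdown replicate 1. In the TRIM28 knockdown edgeR and DESeq2 called 0 (median -0.089), 3 had an unadjusted p under 0.05, and without knockdown replicate 3 edgeR called 1 rise and 6 falls. E2F6, a repressor that is a DNA-binding subunit of it, rose from 11.0 ± 0.45 to 15.3 ± 2.01 CPM in the FOXA1 knockdown (log2 fold change 0.48, edgeR adjusted p = 0.00208). CBX3, a heterochromatin protein, fell from 533 ± 47.1 to 426 ± 23.4 CPM there (-0.32, adjusted p = 5.42e-05).

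Of 18 tested MYC cofactors, 6 rose and 8 fell in the FOXA1 knockdown (33.3% and 44.4%, against 26.1% and 26.3% of all genes, median log2 fold change -0.075). In the TRIM28 knockdown 3 rose and 6 fell (16.7% and 33.3%, against 13.3% each, median -0.119). Without replicate 3 of the TRIM28 knockdown 3 rose and 10 fell, and without any 1 of its other libraries 0 to 2 rose and 2 or 3 fell. RUVBL1, an ATPase of the chromatin remodelling and acetylation complexes that MYC recruits, fell in both, from 245 ± 6.33 to 164 ± 5.84 CPM (log2 fold change -0.58, edgeR adjusted p = 3.02e-11) and from 236 ± 12.3 to 177 ± 5.46 CPM (-0.41, adjusted p = 0.0047). SMARCB1, a SWI/SNF subunit that binds MYC, fell from 114 ± 4.54 to 79.3 ± 6.99 CPM in the TRIM28 knockdown (-0.52, adjusted p = 0.00343). EP300, also of this list, went the other way and rose in both, by 0.41 (edgeR adjusted p = 6.3e-07) and 0.35 (adjusted p = 0.0161). The second of these calls was lost in 3 of 17 alternatives.

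Of 19 tested genes that act on MYC protein stability, 4 rose and 7 fell in the FOXA1 knockdown (21.1% and 36.8%, against 26.1% and 26.3% of all genes, median log2 fold change -0.052). In the TRIM28 knockdown 2 rose and 3 fell (10.5% and 15.8%, against 13.3% each, median -0.037). Without replicate 3 of the TRIM28 knockdown 5 rose and 8 fell, and without any 1 of its other libraries 2 rose and 1 or 2 fell. GSK3B, the kinase that marks MYC for degradation, rose in both, from 224 ± 2.73 to 332 ± 5.54 CPM (log2 fold change 0.57, edgeR adjusted p = 1.33e-11) and from 223 ± 12.9 to 337 ± 4.88 CPM (0.60, adjusted p = 0.000887). CIP2A, which protects MYC by inhibiting a phosphatase, fell from 71.1 ± 2.59 to 46.0 ± 4.03 CPM in the FOXA1 knockdown (-0.63, adjusted p = 1.33e-08). USP28, a deubiquitinase that stabilises MYC, rose from 96.9 ± 0.86 to 158 ± 8.57 CPM in the FOXA1 knockdown (0.70, adjusted p = 5.9e-12). MYC protein was not measured.

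Of 8 listed neighbours of MYC on 8q24, 6 were found and tested in the FOXA1 knockdown, and 4 of these fell with it. That is 66.7%, against 26.3% of all genes (median log2 fold change -0.959). CASC11 (-0.19) and POU5F1B (-0.72) were not called there. Of the 4 calls, only that of PCAT1 held under all 17 alternatives. PCAT1, a long noncoding RNA of prostate cancer, fell from 20.4 ± 2.04 to 9.05 ± 0.79 CPM (log2 fold change -1.17, edgeR adjusted p = 3.53e-09). PVT1, the noncoding gene next to MYC, fell from 32.5 ± 7.03 to 19.3 ± 3.75 CPM (-0.75, adjusted p = 0.0129). The PVT1 call was lost without knockdown replicate 2 (-0.71, adjusted p = 0.0722). CASC8 fell from 1.32 ± 0.33 to 0.528 ± 0.216 CPM (adjusted p = 0.0141) and CASC19 from 2.10 ± 0.94 to 0.791 ± 0.526 CPM (adjusted p = 0.00629). These low counts rest on single libraries: the CASC8 call was lost without control replicate 1 or knockdown replicate 2, and the CASC19 call without control replicate 3. In the TRIM28 knockdown edgeR and DESeq2 called 0 of 5 (median 0.03) and 0 had an unadjusted p under 0.05, with PCAT1 at 21.8 ± 0.25 and 22.8 ± 4.41 CPM (0.07, adjusted p = 0.764), and the difference between the PCAT1 effects passed (1.22, edgeR adjusted p = 0.000498).

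The genes whose pattern was most like each member were ranked by Pearson correlation of log2 CPM over the 12 libraries, among 10660 genes. These libraries share 4 groups, so the values describe the common pattern and carry no test. For MYC they were TAOK3 (r = 0.998), AADAT (0.992), CTH (0.991), DOCK8 (0.991) and ENDOD1 (0.989), each highest in the controls, lower in the TRIM28 knockdown and lowest in the FOXA1 knockdown. TAOK3, a kinase, had group means of 153 and 90.7 CPM in the FOXA1 pair and 150.1 and 113 CPM in the TRIM28 pair. For MXD3 they were CLDN3 (0.952) and ZDHHC12 (0.952), and for MXD4 RTL8C (0.970) and CELSR2 (0.967). MXD1 was closest to ZNF347 (0.975) and SMPD1 (0.969), and MNT to DVL2 (0.954) and CHKA (0.949). MXI1 was closest to YEATS2 (0.969) and ATF3 (0.958), and ATF3, a stress-induced factor, had 288 and 131 CPM in the FOXA1 pair and 293 and 306 CPM in the TRIM28 pair. The likeness was weaker for MGA (ZNF215 at 0.914, AKAP9 at 0.885) and weakest for MAX (DNAJC19 at 0.819, ACBD3 at 0.782), the 2 members that passed in neither knockdown.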

How the data were processed

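The authors deposited read counts per gene symbol, 1 table for each knockdown with its control, and FPKM values for all 12 libraries. The submitters' processing notes name GRCh38 (hg38) as the build; the aligner, counter and strand setting are not given in any source used here. Symbols repeated on several lines were kept once. Dividing the counts by the library total and by 1 fixed length for each gene returned the FPKM values of all 33045 genes checked (relative tolerance 0.001). Groups were taken from titles and treatment labels, since some genotype labels name neighbouring gene numbers.

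Each knockdown was tested against its control with edgeR 4.0.16 (R 4.3.3): TMM scaling, the robust quasi-likelihood F-test (two-sided), and genes kept by filterByExpr at a count of 10 and a total of 15, with Benjamini-Hochberg adjustment over all genes tested and a threshold of 0.05. The difference between the effects was a contrast over the 12 libraries. CPM values are TMM-scaled, except that markers and PRELID1 and RAB24 use library totals. The p-values judge a group difference against the spread between replicates. Whether that spread holds variation between shRNAs is not known, since their number was not stated. Fits were tested on simulated counts in which 100 genes changed 2-fold and 100 changed 1.5-fold. With the settings of the FOXA1 pair 75% and 62% of these were called in the right direction. With those of the TRIM28 pair it was 69% and 44%, so many real changes of this size can be missed. Unchanged genes gave 8 and 6 false calls. The 17 alternatives per knockdown were DESeq2 1.42.0, other scalings, no filter, the replicate block, 1 fit over all libraries, no robust estimation, limma 3.58.1 (voom with quality weights, and log2(FPKM + 1) or log2(FPKM + 0.1)) and leaving out each library. Exon overlaps came from GENCODE release 29.

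The members, lists and tests were chosen with earlier results of these data known. Genes named beside the members are up to 4 per list with the smallest p in each knockdown, or a part of these, and the genes most like each member with a mean of at least 5 CPM (prior count 2).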

Additional observations from a re-analysis of the deposited data

Results flagged for a closer look

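The effects of the 2 knockdowns, each against its own control, differed for 16 of the members and the genes named from the lists of partners, cofactors, targets and 8q24 neighbours, by the contrast over all 12 libraries (edgeR's quasi-likelihood test, Benjamini-Hochberg adjusted p under 0.05). The difference was called for 10.6% of all 15921 genes tested. The list genes were picked for a small p in 1 of the knockdowns, from these same libraries. Such a choice favours a difference, so the count of 16 says nothing about the lists. Values are the TRIM28 effect minus the FOXA1 effect on the log2 scale. Among the members they were 0.41 for MYC (adjusted p = 0.00775), which fell in both, and -0.96 for MXD3 (adjusted p = 0.0103), which fell in the TRIM28 knockdown.

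Among partners and cofactors the difference was -0.71 for MLX, -0.49 for NCOR1, -0.33 for RBBP4, -0.56 for RBBP7, -0.42 for WDR5, -0.70 for USP28 and 0.50 for TRIM32. RBBP7, a histone-binding subunit of the SIN3 complex, had effects of 0.25 in the FOXA1 knockdown and -0.30 in the TRIM28 knockdown, the latter called (adjusted p = 0.0442) but not in 9 of 17 alternatives (adjusted p up to 0.253). TRIM32, a ubiquitin ligase that acts on MYC, had effects of 0.02 and 0.53.

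Among target genes the difference was -1.10 for DUSP2, -0.40 for TMEM97, -0.55 for SLC19A1, -1.48 for CLU and -1.04 for NDRG1, a stress gene that rose by 1.08 in the FOXA1 knockdown and had 0.05 in the TRIM28 knockdown. On 8q24 it was 1.22 for PCAT1 and 0.77 for PVT1, both of which fell in the FOXA1 knockdown and had effects of 0.07 and 0.03 in the TRIM28 knockdown. The FOXA1 level differed between the knockdowns as given above, and its part in these differences was not tested.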

How the results depend on the processing

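In the FOXA1 knockdown all 5 member calls held under all 17 alternatives, and in the TRIM28 knockdown those of MYC and MXD3 did; MXD1 held in 9 and MNT in 6. The replicate block kept MYC at -0.98 and -0.56, and called 5 and 3 members. Same-numbered libraries did not deviate together (r from -0.084 to 0.103). With 3 replicates per group this cannot show whether libraries were handled in pairs. In the TRIM28 knockdown voom with quality weights called 6633 genes and unfiltered FPKM 1224, and each FPKM setting called 2 members. MAX there was 0.063 with library totals, 0.053 with voom and 0.055, 0.058 and 0.055 with FPKM. Voom gave PCAT1 -0.057 and CASC19 -0.13. Without a filter the difference was -0.0089 for MAX and -0.014 for MNT, and 8 genes separated the controls; library totals gave MXD4 0.072. MYC-activated rises were 5 in 1 fit of 12 libraries and in unfiltered FPKM (FOXA1), and 2 with library totals, voom and FPKM + 0.1 (TRIM28), where unfiltered FPKM gave 12 falls. MYC-repressed rises and falls (TRIM28) were 3 and 0 in unfiltered FPKM, and 4 fell with voom.

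Leaving out 1 library gave 1877 to 6867 calls for the TRIM28 knockdown, 1199 to 3583 for the difference, 0 to 1 between controls, 2 to 6 TRIM28 members, and in TRIM28 lists 17 to 44 activated falls, 1 to 2 activated rises, 3 to 6 repressed rises and 0 to 4 repressed falls. Values that changed sign ranged, in the FOXA1 knockdown, from -0.11 to 0.073 (MAX), -0.28 to 0.045 (MXD3), -0.053 to 0.0093 (MLX) and -0.0091 to 0.24 (MYCL). In the TRIM28 knockdown they ranged from -0.055 to 0.057 (MAX), -0.27 to 0.0071 (MXI1), -0.50 to 1.70 (CASC19) and -0.10 to 0.17 (PCAT1). For the difference they were -0.10 to 0.093 (MAX), -0.23 to 0.049 (MXD1), -0.26 to 0.23 (MXD4) and -0.057 to 0.030 (MNT), and between controls -0.13 to 0.067 (MAX), -0.058 to 0.27 (MXD3), -0.0086 to 0.12 (MXD4), -0.065 to 0.10 (MXI1) and -0.061 to 0.068 (MGA). The cause was not tested. Fits with fewer libraries have less power, and the part of this in the ranges was not tested. The highest counts, 6867 and 3583, came without replicate 3 of the TRIM28 knockdown. The filter left out genes with fewer than about 10 counts in a library of typical size.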
